A study of Mus musculus with 12 samples.

Results

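The genes of the receptors Cxcr4 and S1pr1 and of 8 G protein subunits were examined in mouse pre-B leukemia cells with or without Cre-driven stabilization of β-catenin, in lines labelled as wild-type or as knockout of Ikaros factors. They are Cxcr4, S1pr1, the Gα genes Gnai2, Gnai3, Gna12, Gna13, Gnaq and Gna15, and the Gβ genes Gnb1 and Gnb2. The members were picked out of the table by gene symbol, with no threshold on their values. They and the gene lists below were nevertheless chosen with earlier results of these data known. All 10 were present among the 12151 genes of the expression table.

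The pre-B cells came from the bone marrow of mice aged 6 to 12 weeks, were grown with IL-7 and were then transformed with the BCR-ABL1 oncogene, which models B-ALL, acute lymphoblastic leukemia of B cells. All 12 libraries came from cells in which exon 3 of 1 Ctnnb1 allele is flanked by loxP sites (Ctnnb1 Ex3 fl/+). Exon 3 encodes phosphorylation sites that target β-catenin for breakdown, and removal of the exon by Cre stabilizes the protein. WT cells had received Cas9 with nontargeting guides, and KO cells had received Cas9 with guides against Ikzf1 and Ikzf3, the genes of the Ikaros factors Ikaros and Aiolos. Cells of both kinds then received a vector for ERT2 alone or for Cre-ERT2, a Cre that 4-hydroxytamoxifen (4-OHT) activates, and GFP+ cells were sorted. The labels name day 1 of 4-OHT treatment in wording written for chromatin experiments. This gave 4 groups of 3 libraries, of which ERT2 WT and ERT2 KO lack Cre, while Cre-ERT2 WT and Cre-ERT2 KO carry it. No group carried Cre without the floxed allele, so effects of active Cre itself cannot be told apart here from stabilization of β-catenin. The edited lines were derived from single cells, and no source assigns a line to a library or says whether replicates were separate cultures. P values therefore measure the spread between these libraries, which may be technical. Differences between KO and WT, also in the change with Cre-ERT2, may be differences between lines, which cannot be told apart here from the editing.

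CXCR4 is the receptor for the chemokine CXCL12, which holds B cell precursors in the bone marrow. S1PR1 senses sphingosine 1-phosphate and draws lymphocytes towards blood and lymph. Both receptors signal through heterotrimeric G proteins, in which an α subunit binds GTP and separates from a dimer of a β and a γ subunit. Gi subunits lower cyclic AMP and release the βγ dimers that drive chemotaxis, G12 and G13 activate the small GTPase RhoA and restrain migration of B cells, and Gq-type subunits activate phospholipase C.

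Several facts of the whole table bear on these genes. Levels are log2 values as the authors normalized them, and a difference of log2 values is a log2 fold change. A gene is termed called where its limma P value, adjusted over all genes, was under 0.05. The median gene had a level of 9.08, and how deeply each library was sequenced is unknown. Ikzf3 was lower in the KO libraries (a change of -0.65 with ERT2 and -0.70 with Cre-ERT2), whereas Ikzf1 mRNA was higher (1.01 and 0.90). The Ikzf1 transcript thus did not fall in KO libraries, and KO is used here as the label of a library. The paper reports that western blots showed the deletion of Ikaros factors in its single-cell clones, but it does not assign clones to these libraries. Neither the loss of protein nor the removal of Ctnnb1 exon 3 can be read from values per gene. All 9 defining genes of the B lineage were in the table. Their summed unlogged level ran from 108000 to 109000 in ERT2 WT, 105000 to 107000 in Cre-ERT2 WT, 83900 to 84000 in ERT2 KO and 78900 to 80100 in Cre-ERT2 KO. Of the markers of other cells, 2 of 8 for T cells, 2 of 8 for myeloid cells, 2 of 6 for stromal and endothelial cells and 0 of 7 for erythroid cells and megakaryocytes were in the table.

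In GRCm38 the receptor genes lie on separate chromosomes, with Cxcr4 (ENSMUSG00000045382) at chr1:128588199-128592293 on the minus strand and S1pr1 (ENSMUSG00000045092) at chr3:115710433-115715072 on the minus strand. Of the Gi genes, the annotation places Gnai2 (ENSMUSG00000032562) at chr9:107614125-107635367 on the minus strand and Gnai3 (ENSMUSG00000000001) at chr3:108107280-108146146 on the minus strand. The G12 type comprises Gna12 (ENSMUSG00000000149) at chr5:140758408-140830431 on the minus strand and Gna13 (ENSMUSG00000020611) at chr11:109362831-109401369 on the plus strand, and the Gq type Gnaq (ENSMUSG00000024639) at chr19:16132831-16387463 on the plus strand and Gna15 (ENSMUSG00000034792) at chr10:81502306-81524225 on the minus strand. The Gβ genes are Gnb1 (ENSMUSG00000029064) at chr4:155491361-155559269 on the plus strand and Gnb2 (ENSMUSG00000029713) at chr5:137528127-137533510 on the minus strand.

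The sequences just upstream of these genes are shown for 4 members that differed between WT and KO libraries in opposite directions or by different amounts, namely Cxcr4, Gna12 and Gnai3, which were lower in KO, and Gnb1, which was higher. Each is the 250 bases before the gene's start in RefSeq (GRCm38.p6), 5′ to 3′ on the strand of the gene. Capitals mark GGGAA, the core of the Ikaros motif, or its reverse complement TTCCC. The windows lie at chr1:128592300-128592549 (Cxcr4, minus strand), chr5:140830432-140830681 (Gna12, minus strand), chr3:108146153-108146402 (Gnai3, minus strand) and chr4:155491111-155491360 (Gnb1, plus strand).
Cxcr4: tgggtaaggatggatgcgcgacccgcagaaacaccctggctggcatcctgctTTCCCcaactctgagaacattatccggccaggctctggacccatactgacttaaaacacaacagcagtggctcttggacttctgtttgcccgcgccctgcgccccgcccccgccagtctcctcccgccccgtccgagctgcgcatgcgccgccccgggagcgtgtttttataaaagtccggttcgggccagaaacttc
Gna12: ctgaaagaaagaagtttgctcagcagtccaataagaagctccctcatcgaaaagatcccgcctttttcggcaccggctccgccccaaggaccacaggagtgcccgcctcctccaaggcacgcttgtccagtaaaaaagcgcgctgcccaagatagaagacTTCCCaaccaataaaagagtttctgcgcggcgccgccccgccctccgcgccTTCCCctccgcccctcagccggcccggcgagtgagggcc
Gnai3: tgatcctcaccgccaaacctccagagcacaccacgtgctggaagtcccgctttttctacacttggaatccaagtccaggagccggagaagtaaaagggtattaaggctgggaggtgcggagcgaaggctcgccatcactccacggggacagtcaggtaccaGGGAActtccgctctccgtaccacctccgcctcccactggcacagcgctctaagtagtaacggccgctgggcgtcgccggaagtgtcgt
Gnb1: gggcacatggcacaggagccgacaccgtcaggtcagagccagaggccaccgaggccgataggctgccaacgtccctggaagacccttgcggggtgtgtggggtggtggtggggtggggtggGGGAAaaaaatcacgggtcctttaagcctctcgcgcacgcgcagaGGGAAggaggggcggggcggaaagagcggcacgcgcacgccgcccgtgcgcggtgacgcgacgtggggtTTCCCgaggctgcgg
Sequences were found for 8 of the 10 members, with no entry for Gnai2 and S1pr1. GGGAA was present on either strand in 7 of these 8 windows, the exception being Gnaq, and in 56.2% of all 32851 windows of the same length. The longer form TGGGAA, which contains the core, was present in Gna12 alone, 90 to 85 bases before the start, and in 21.6% of all windows. The TCF/LEF motif CTTTGAT was present in Gnb2 alone, 157 to 151 bases before the start, and in 3.2% of all windows. The RefSeq start of Gnb2 lies inside the gene as annotated above, so that this match lies within the annotated gene. A match describes the letters of a window and is not evidence that a factor binds there.

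Among the members, Cxcr4 had the largest difference with Cre-ERT2 in both backgrounds. In ERT2 WT its log2 level was 12.01, 12.00 and 12.06, and in Cre-ERT2 WT it was 12.33, 12.29 and 12.33. In ERT2 KO it was 11.50, 11.48 and 11.49, and in Cre-ERT2 KO it was 12.02, 12.03 and 12.04. The Cre-ERT2 libraries were therefore above the ERT2 libraries of the same background without overlap, the ERT2 KO libraries were the lowest of all, and the Cre-ERT2 KO libraries lay within the range of ERT2 WT.

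With Cre-ERT2, Cxcr4 rose by 0.29 (SE 0.022, limma adjusted p = 3.12e-06) on the log2 scale in WT cells, which is 22.3% on the linear scale. In KO cells the rise was 0.54 (SE 0.022, limma adjusted p = 6.2e-09), which was rank 44 from the highest of the 12151 genes. The rise was larger in KO than in WT cells by 0.25 (95% CI 0.18 to 0.316, limma adjusted p = 0.000591). On the unlogged scale the rise was also larger in KO, at 1300 (SE 18) normalized units against 929 (SE 76), a difference that was not tested. The change in KO against WT libraries was -0.53 (limma adjusted p = 4.52e-10) with ERT2 and -0.29 (limma adjusted p = 1.97e-07) with Cre-ERT2. Cre-ERT2 KO differed from ERT2 WT by 0.005 (95% CI -0.044 to 0.053), a comparison chosen after the values were seen.

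**Figure D1:**
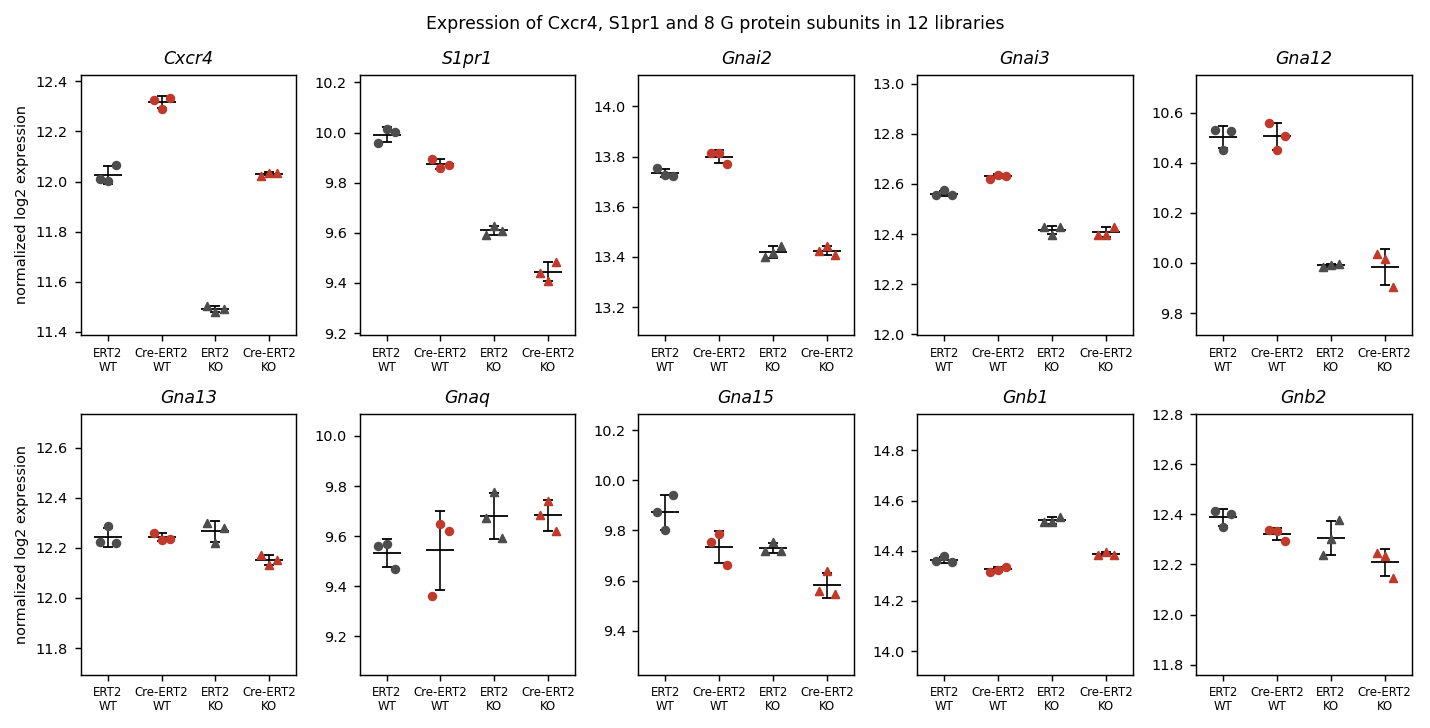
Normalized log2 level of the 10 genes in each library (points), with the mean and SD of each group of 3 (bars), for ERT2 (grey) and Cre-ERT2 (red) in WT (circles) and KO (triangles). Each panel spans the same log2 range, so that the separation of the groups can be compared between genes. Cxcr4 lies between 11.48 and 12.33, with ERT2 KO lowest and Cre-ERT2 WT highest, whereas the S1pr1 groups descend from ERT2 WT to Cre-ERT2 KO.

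S1pr1 was lower with Cre-ERT2 in both backgrounds, the opposite direction to Cxcr4. Its log2 level was 9.96, 10.01 and 10.00 in ERT2 WT and 9.90, 9.86 and 9.87 in Cre-ERT2 WT. In KO cells it was 9.59, 9.63 and 9.61 with ERT2 and 9.44, 9.41 and 9.48 with Cre-ERT2. The 4 groups did not overlap. ERT2 WT was the highest, followed by Cre-ERT2 WT and then ERT2 KO, and Cre-ERT2 KO was the lowest.

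S1pr1 changed with Cre-ERT2 by -0.12 (SE 0.027, limma adjusted p = 0.0145) in WT cells and by -0.16 (limma adjusted p = 0.00145) in KO cells. The call in WT cells was lost without ERT2 WT replicate 2 or without Cre-ERT2 WT replicate 2 or 3, with limma adjusted p from 0.0505 to 0.0611. The change did not pass the test for a difference between KO and WT cells (-0.049, 95% CI -0.132 to 0.034, limma adjusted p = 0.577). In KO against WT libraries S1pr1 changed by -0.38 (limma adjusted p = 8.57e-08) with ERT2 and by -0.43 (limma adjusted p = 2.56e-08) with Cre-ERT2.

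The distance between the receptor genes within a library, as log2 Cxcr4 minus log2 S1pr1, averaged 2.035 in ERT2 WT, 2.441 in Cre-ERT2 WT, 1.883 in ERT2 KO and 2.586 in Cre-ERT2 KO. Cre-ERT2 libraries thus had the wider distance in both backgrounds, by 0.406 (SE 0.026) in WT and 0.703 (SE 0.027) in KO cells, without overlap. The exact 2-sided permutation test gave p = 0.1 for each, the smallest that 3 against 3 libraries allow. Whether the widening differed between the backgrounds was not tested for the distance itself.

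**Figure D2:**
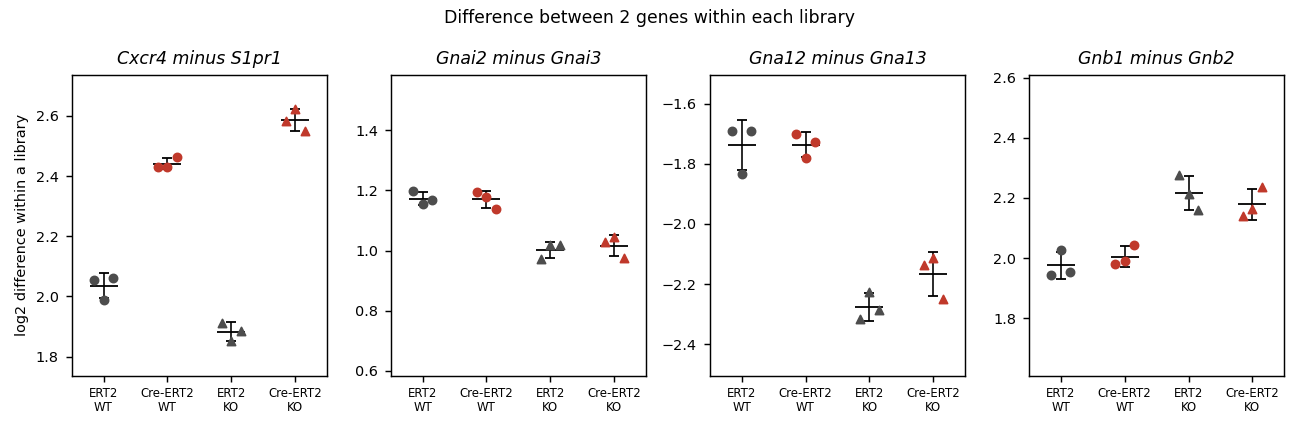
Difference of log2 levels within a library for pairs of members (points, libraries; bars, mean and SD of a group of 3), by group. The distance between Cxcr4 and S1pr1 is wider in both Cre-ERT2 groups, and the distance between Gnai2 and Gnai3 is narrower in both KO groups, from means of 1.173 and 1.17 to 1.003 and 1.017.

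The Gi genes Gnai2 and Gnai3, whose products couple both receptors to the inhibition of adenylyl cyclase, were lower in KO libraries. Gnai2 was at 13.75, 13.73 and 13.72 in ERT2 WT and 13.82, 13.81 and 13.77 in Cre-ERT2 WT, against 13.40, 13.41 and 13.44 in ERT2 KO and 13.42, 13.44 and 13.41 in Cre-ERT2 KO. KO and WT libraries did not overlap, and the KO groups overlapped with each other. The change was -0.32 (SE 0.020, limma adjusted p = 3.62e-08) with ERT2 and -0.38 (limma adjusted p = 6.43e-09) with Cre-ERT2.

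Gnai3 had the same order of WT and KO but smaller differences. Its levels were 12.56, 12.57 and 12.55 in ERT2 WT, 12.62, 12.64 and 12.63 in Cre-ERT2 WT, 12.43, 12.40 and 12.43 in ERT2 KO, and 12.40, 12.40 and 12.43 in Cre-ERT2 KO. It changed in KO libraries by -0.15 (limma adjusted p = 2.4e-05) with ERT2 and by -0.22 (limma adjusted p = 4.41e-07) with Cre-ERT2. The distance from Gnai2 to Gnai3 changed in KO by -0.17 with ERT2 and -0.153 with Cre-ERT2, each without overlap (exact permutation p = 0.1).

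Differences of the Gi genes between Cre-ERT2 and ERT2 were small. In WT cells Gnai3 rose by 0.069 (SE 0.019, limma adjusted p = 0.0324), a call that was lost without any 1 of the 6 WT libraries (0.0568 to 0.0997) and after centring each library on its median (0.0688) or quantile normalization (0.0824). Gnai2 differed by 0.066 (limma adjusted p = 0.0576) there. It was called among genes with a mean above 8 (0.0481), in a limma fit without trend (0.0485) and without Cre-ERT2 KO replicate 3 (0.0459). In KO cells the differences were 0.0051 (95% CI -0.039 to 0.05) for Gnai2 and -0.0087 (95% CI -0.05 to 0.032) for Gnai3, and neither passed.

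Gna12 and Gna13 encode the paired α subunits that act on RhoA through RhoGEF proteins, yet the genes had different patterns. Gna12 was at 10.53, 10.45 and 10.53 in ERT2 WT and 10.56, 10.45 and 10.51 in Cre-ERT2 WT, and at 9.98, 9.99 and 10.00 in ERT2 KO and 10.04, 10.02 and 9.90 in Cre-ERT2 KO. All KO libraries were below all WT libraries, while the ERT2 and Cre-ERT2 groups of a background overlapped. The change in KO was -0.51 (SE 0.039, limma adjusted p = 1.5e-07) with ERT2 and -0.52 (limma adjusted p = 1.27e-07) with Cre-ERT2, whereas with Cre-ERT2 the difference was 0.0021 (95% CI -0.082 to 0.086) in WT and -0.0048 (95% CI -0.089 to 0.079) in KO cells.

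Gna13 averaged 12.24 ± 0.039 (SD, n = 3) in ERT2 WT, 12.24 ± 0.016 in Cre-ERT2 WT, 12.27 ± 0.042 in ERT2 KO and 12.15 ± 0.021 in Cre-ERT2 KO. Only the Cre-ERT2 KO libraries lay below the other 3 groups without overlap. Gna13 changed with Cre-ERT2 in KO cells by -0.11 (limma adjusted p = 0.0135), a call that was lost without ERT2 KO replicate 1 or 3 or Cre-ERT2 KO replicate 2 (limma adjusted p from 0.0508 to 0.0588) and in a fit of the 6 KO libraries alone (0.0537). It changed in KO with Cre-ERT2 by -0.091 (limma adjusted p = 0.0104), which was lost under quantile normalization (0.0697), and with ERT2 it differed by 0.024 (limma adjusted p = 0.463). Log2 Gna12 minus log2 Gna13 changed in KO by -0.537 with ERT2 and -0.429 with Cre-ERT2, each without overlap (exact permutation p = 0.1).

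Of the Gq-type genes, Gna15, whose product couples to many receptors of blood cells, was lower in KO libraries and Gnaq was not called in any comparison. Gna15 averaged 9.87 ± 0.071 (SD, n = 3) in ERT2 WT, 9.73 ± 0.065 in Cre-ERT2 WT, 9.73 ± 0.02 in ERT2 KO and 9.58 ± 0.051 in Cre-ERT2 KO. It changed in KO by -0.14 (limma adjusted p = 0.0104) with ERT2 and by -0.15 (limma adjusted p = 0.007) with Cre-ERT2. The first of these was lost without ERT2 WT replicate 3 (0.0506).

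With Cre-ERT2 Gna15 changed by -0.15 (limma adjusted p = 0.0368) in KO cells, a call lost without ERT2 WT replicate 1, any ERT2 KO replicate or Cre-ERT2 KO replicate 1 or 3 (0.0521 to 0.12). In WT cells it differed by -0.14 (limma adjusted p = 0.0516). That was called after centring on medians (0.0381), under quantile normalization (0.0335) and in 3 fits without 1 library (0.0269 to 0.0468). It was also called among genes with a mean above 8 (0.0408) and in a robust limma fit (0.0499). The changes in KO and WT cells did not pass the test for a difference (-0.0099, limma adjusted p = 0.962). Gnaq was the most variable member, with levels from 9.36 to 9.65 within Cre-ERT2 WT alone. Its difference in KO was 0.15 (SE 0.070, limma adjusted p = 0.09) with ERT2 and 0.14 (limma adjusted p = 0.106) with Cre-ERT2, and with Cre-ERT2 it was 0.010 in WT and 0.0031 in KO cells. The first was called in a fit of the 6 libraries compared (0.0358) and without Cre-ERT2 WT replicate 1 (0.021), and the second without Cre-ERT2 WT replicate 2 (0.0443).

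Gnb1, the gene of a Gβ subunit that forms dimers with many Gγ partners, was the member called higher in KO libraries. Its levels were 14.36, 14.38 and 14.36 in ERT2 WT, 14.32, 14.32 and 14.34 in Cre-ERT2 WT, 14.51, 14.51 and 14.54 in ERT2 KO, and 14.38, 14.40 and 14.38 in Cre-ERT2 KO. ERT2 KO stood above the other groups, and Cre-ERT2 WT below them, the opposite of Cxcr4. Gnb1 rose in KO by 0.16 (SE 0.016, limma adjusted p = 2.79e-06) with ERT2 and by 0.062 (limma adjusted p = 0.0049) with Cre-ERT2, the latter lost after centring on library medians (0.029, limma adjusted p = 0.144).

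With Cre-ERT2 Gnb1 changed by -0.13 (SE 0.016, limma adjusted p = 0.000126) in KO cells and differed by -0.039 (limma adjusted p = 0.157) in WT cells. The changes differed from each other by -0.095 (limma adjusted p = 0.0354), and this call was lost without any 1 of 10 libraries, all but Cre-ERT2 KO replicates 2 and 3 (0.0525 to 0.102). Gnb2, another Gβ gene, averaged 12.39 ± 0.035 (SD, n = 3) in ERT2 WT, 12.32 ± 0.024 in Cre-ERT2 WT, 12.30 ± 0.069 in ERT2 KO and 12.21 ± 0.054 in Cre-ERT2 KO. It changed in KO with Cre-ERT2 by -0.11 (limma adjusted p = 0.0176), lost without Cre-ERT2 WT replicate 1 or 2 or Cre-ERT2 KO replicate 3 (0.0519 to 0.0757) or under quantile normalization (0.053). With ERT2 Gnb2 differed in KO by -0.083 (limma adjusted p = 0.0649), which was called after centring on medians (0.0108) and in 3 fits without 1 library (0.0135 to 0.0476).

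**Figure D3:**
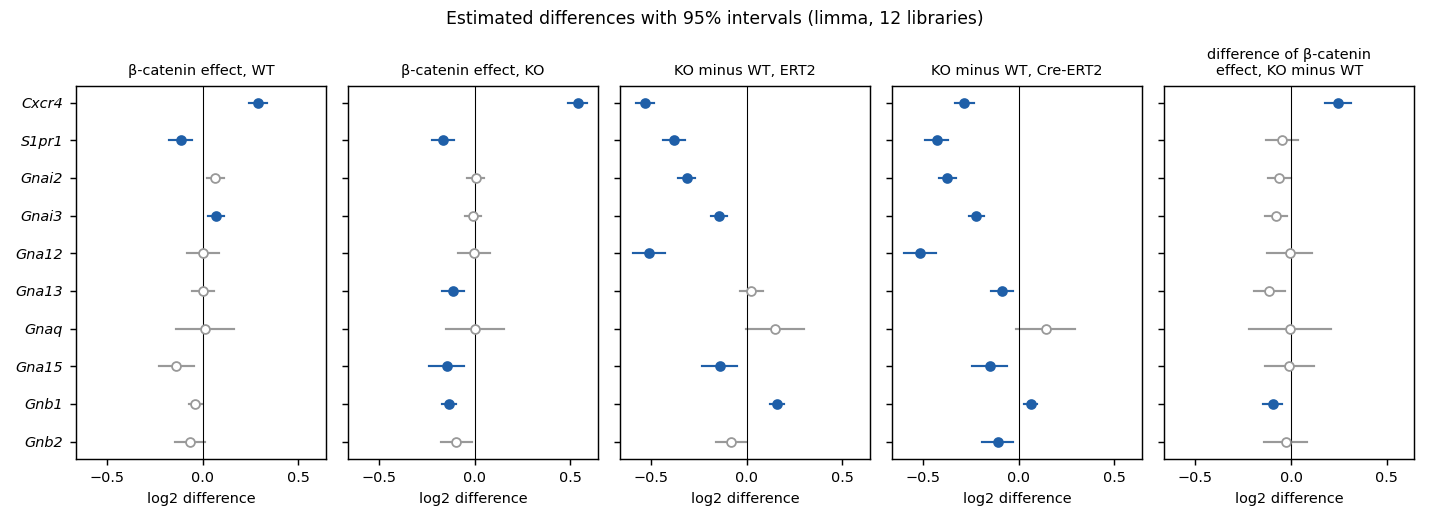
Log2 fold change of each gene in the 5 comparisons (points) with its 95% confidence interval from limma (bars), where filled blue points passed an adjusted p of 0.05 and open grey points did not. Panels named β-catenin effect compare Cre-ERT2 with ERT2. Cxcr4 rises with Cre-ERT2 by 0.29 in WT and 0.54 in KO cells. In KO against WT libraries with ERT2, 6 of the genes are called lower and Gnb1 higher, beside 29.3% lower and 29.8% higher of all genes.

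Counted together, 3 of the 10 members were called with Cre-ERT2 in WT cells (2 higher, 1 lower), beside 11.9% of all genes (5.93% higher, 5.95% lower), and the count was 1 without Cre-ERT2 WT replicate 3. In KO cells 5 were called with Cre-ERT2 (1 higher, 4 lower), beside 12.6% (7.27% higher, 5.33% lower), and the count was 3 without ERT2 KO replicate 3. In KO against WT libraries 7 were called with ERT2 (1 higher, 6 lower), beside 59.0%, and 9 with Cre-ERT2 (1 higher, 8 lower), beside 58.9%. A difference of the Cre-ERT2 change between KO and WT was called for 2, Cxcr4 (positive) and Gnb1 (negative), beside 4.53% (2.71% positive, 1.82% negative).

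The KO counts have to be read against a table in which most genes were called, with 29.8% higher and 29.3% lower with ERT2 and 30.4% higher and 28.6% lower with Cre-ERT2. Centring each library on its median moved the split of called genes from 3616 higher and 3559 lower to 2866 and 4747 with ERT2, and from 3688 and 3473 to 2983 and 4789 with Cre-ERT2. The median log2 fold change of the 10 members was -0.144 with ERT2 and -0.188 with Cre-ERT2, beside 0.0016 and 0.00155 for all genes. All genes are not matched to the members in level, since the members' means ran from 9.61 to 14.4 and the median gene had 9.08. Among genes with a mean above 8, 2348 were called higher and 2778 lower in KO with ERT2. Groups did not overlap for 8 members with ERT2 and 9 with Cre-ERT2, beside 65.5% and 63.6% of all genes. With Cre-ERT2 against ERT2, groups did not overlap for 7 members in WT cells and 5 in KO cells, beside 31.1% and 28.3%. The KO comparisons with ERT2 and with Cre-ERT2 share no library, but each shares its groups with the comparisons of Cre-ERT2 against ERT2.

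The lower levels of Cxcr4, S1pr1, Gnai2, Gnai3, Gna12 and Gna15 in KO libraries went with changes of B lineage genes. Of these, 6 of 9 were called lower and 1, Rag1, higher with ERT2, and 7 lower and 1 higher with Cre-ERT2. The shares of all genes were 29.3% lower and 29.8% higher with ERT2, and 28.6% lower and 30.4% higher with Cre-ERT2. Cd79a, the highest marker, which encodes a chain of the B cell receptor, changed by -0.79 with ERT2 and -0.76 with Cre-ERT2. Summed levels of Lck and Cd2, listed as T cell markers, ran from 2120 to 2380 in WT and 708 to 785 in KO libraries. Those of Lyz2 and Itgam, listed as myeloid markers, ran from 189 to 196 in WT and 350 to 433 in KO. Lyz2 rose in KO by 0.99 with ERT2 and 1.23 with Cre-ERT2, whereas Itgam changed by -0.15 and -0.18. Vim and Pecam1, listed as stromal and endothelial markers, summed to 23700 to 25400 in WT and 20400 to 21500 in KO. The defining T cell genes Cd3e, Cd3d and Cd3g and the myeloid genes Csf1r and Mpo were not in the table. With Cre-ERT2 5 of the 9 B lineage genes were called lower and 1 higher in either background. All genes had 5.95% lower and 5.93% higher in WT cells, and 5.33% lower and 7.27% higher in KO cells. Of the genes listed as markers of other cells, Lck rose with Cre-ERT2 by 0.81 in WT and 0.33 in KO cells. Pecam1 rose by 0.29 and 0.36, as Cxcr4 did, while Cd2 changed by -0.17 in WT cells and Lyz2 rose by 0.21 in KO cells. The change of Lck differed between KO and WT by -0.48 (limma adjusted p = 0.000102), opposite in sign to the difference for Cxcr4. The part of these markers in the results was not tested. Bulk RNA does not show whether the listed genes were expressed by the leukemia cells themselves or by other cells. Fewer cells of a type and less RNA per cell cannot be told apart in it either.

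Levels of different genes were compared per kilobase of the longest coding transcript, on the log2 scale in ERT2 WT. Gnb1 (12.71) and Gnai2 (12.58) were highest, followed by Gnb2 (11.49), Cxcr4 (11.18), Gnai3 (10.85) and Gna13 (9.62). Gna15 (8.90), Gna12 (8.73), S1pr1 (8.38) and Gnaq (7.03) were lower. Among the 6 Gα members, Gnai2 and Gnai3 were thus the highest by this measure, and Cxcr4 was above S1pr1. Gnb1 has 2 named pseudogenes. On the same strand, Gnb2 overlaps Epo and Mir6418, Gnai2 overlaps Gm19721, and Gnaq overlaps the processed pseudogene Gm17068. On the opposite strand, Gna12 overlaps Amz1, and Gna13, Gna15, Gnaq, Gnb1 and Gnb2 overlap noncoding genes or pseudogenes. The values of these members are less certain where reads could be shared.

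Beyond the members, 73 of 115 listed genes of receptor and G protein signaling were in the table. With Cre-ERT2 22 of the 73 were called in WT cells (15 higher, 7 lower, median log2 fold change 0.00918) and 23 in KO cells (14 higher, 9 lower). In KO against WT libraries 55 were called with ERT2 (23 higher, 32 lower) and 54 with Cre-ERT2 (18 higher, 36 lower). These are 30.1%, 31.5%, 75.3% and 74% of the list, beside 11.9%, 12.6%, 59.0% and 58.9% of all genes.

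**Figure D4:**
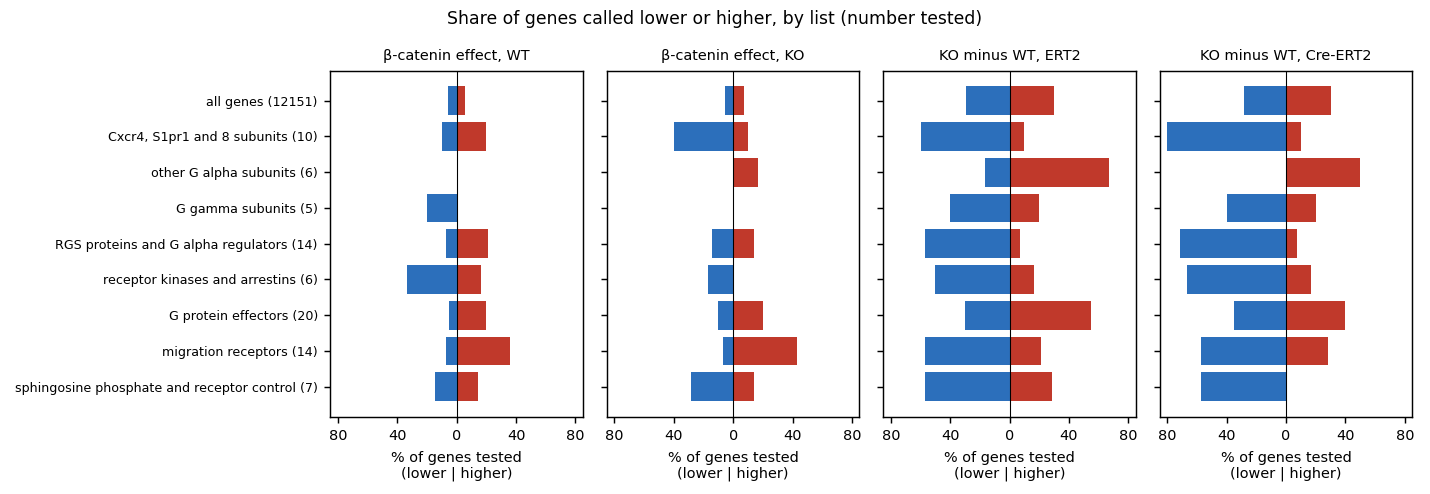
Percent of the genes in each list that were called lower (blue, to the left) or higher (red, to the right) in each comparison, with all genes for reference. Panels named β-catenin effect compare Cre-ERT2 with ERT2. Among the 14 RGS proteins and Gα regulators 8 were lower in KO with ERT2 and 10 with Cre-ERT2, and 1 was higher in each. Of all genes, 29.3% were lower with ERT2 and 28.6% with Cre-ERT2, and 29.8% and 30.4% were higher.

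Among the other migration receptors, 14 in the table, 5 were higher and 1 was lower with Cre-ERT2 in WT cells, and 6 were higher and 1 lower in KO cells. Of all genes, 5.93% were higher and 5.95% lower in WT cells, and 7.27% higher and 5.33% lower in KO cells. In KO against WT libraries 3 were higher and 8 lower with ERT2, and 4 were higher and 8 lower with Cre-ERT2. Called in all were 78.6% and 85.7% of the 14, beside 59.0% and 58.9% of all genes. P2ry10, a receptor of lymphocytes for lysophospholipids, changed by -1.05 in both comparisons of KO with WT. S1pr4, another receptor for sphingosine 1-phosphate, changed by -0.62 and -0.66 in KO libraries and by -0.14 in WT and -0.18 in KO cells with Cre-ERT2, each of these called and in the direction of S1pr1.

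Of 7 genes of sphingosine 1-phosphate handling and receptor control, 1 was called higher and 1 lower with Cre-ERT2 in WT cells, and 1 higher and 2 lower in KO cells. The share of all genes called was 11.9% in WT and 12.6% in KO cells. In KO against WT libraries 2 were higher and 4 lower with ERT2, and 4 were lower with Cre-ERT2, beside 59.0% and 58.9% of all genes called. Cd69, whose product binds S1PR1 and removes it from the surface, rose with Cre-ERT2 by 0.60 (limma adjusted p = 8.73e-07) in WT and 0.41 (limma adjusted p = 1.8e-05) in KO cells. Klf2, a transcription factor that activates S1pr1 in lymphocytes, changed by -0.28 (limma adjusted p = 0.000542) and -0.42 (limma adjusted p = 1.6e-05). Its mean was 8.34 in ERT2 WT, 8.05 in Cre-ERT2 WT, 8.44 in ERT2 KO and 8.02 in Cre-ERT2 KO. Unlike S1pr1, Klf2 was thus not lower in ERT2 KO than in ERT2 WT. Klf2 was chosen after its values were seen. Foxo1, which acts upstream of Klf2, changed by -0.19 (limma adjusted p = 0.00127) in KO cells and differed by -0.010 (limma adjusted p = 0.895) in WT cells.

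The list of RGS proteins and Gα regulators holds genes that speed up or steer the Gα cycle. Rgs12 rose with Cre-ERT2 by 0.22 in both WT and KO cells. Rgs2 changed by -0.76 with ERT2 and -0.83 with Cre-ERT2 in KO against WT libraries.

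Effectors were less uniform, with 11 of 20 higher and 6 lower in KO with ERT2 and 8 higher and 7 lower with Cre-ERT2. Of all genes, 29.8% were higher and 29.3% lower with ERT2, and 30.4% higher and 28.6% lower with Cre-ERT2. Arhgef12, a RhoGEF that G12 and G13 activate, rose in KO by 0.97 and 0.86, while Gna12 was lower there. Arhgef1, the RhoGEF of B cells, changed with Cre-ERT2 in KO cells by -0.22, which differed from WT cells by -0.20 (limma adjusted p = 0.00747). Rac2, a small GTPase of blood cells that drives migration, rose with Cre-ERT2 by 0.27 in KO cells, more than in WT cells by 0.18 (limma adjusted p = 0.00508).

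Among the partners of the members' subunits, Gnb4 was the sole other Gβ gene in the table. Gnb4 rose with Cre-ERT2 by 0.15 in WT cells and changed by -0.13 (limma adjusted p = 0.0165) in KO cells, and the change differed between KO and WT by -0.28 (limma adjusted p = 0.00325), in the direction of the difference for Gnb1. Of 5 Gγ genes, Gng4 rose in KO by 0.27 with ERT2 and 0.49 with Cre-ERT2 and changed with Cre-ERT2 by -0.16 in WT cells, and the difference between KO and WT was 0.22 (limma adjusted p = 0.0154). Of the kinases and arrestins that switch receptors off, Grk5 rose in KO by 0.26 and 0.25, Arrb2 changed by -0.15 with Cre-ERT2 in WT cells, and Adrbk1, which encodes GRK2, differed in its Cre-ERT2 change by -0.21 between KO and WT.

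Finally, the genes whose 12 values most resembled each member's were found by Pearson's r, which describes 12 libraries that fall into 4 groups and carries no test. Dntt, the gene of the DNA polymerase that adds bases at V(D)J junctions, was closest to Cxcr4 (r = 0.9915), followed by Arap2 (0.9898), and the group means of Dntt spanned 1.17 against 0.824 for Cxcr4. Ap1m1 (0.9942) and Gfod1 (0.9928) were closest to S1pr1, Slc9a3r1 (0.997) and Tubb2b (0.9944) to Gnai2, and Iqgap1 (0.9927) and Gm13157 (0.9913) to Gnai3. H2-K1 (0.9958) and Carhsp1 (0.9953) followed Gna12, and Stk10 (0.9847) followed Gnb1. Likeness was weaker for Gna13 (Map3k5 0.8486, Prkaa2 0.8267) and Gnaq (Akr1e1 0.8683). Gna15 was closest to Aimp2 (0.9508) and Gm12493 (0.9437), and Gnb2 to 1190002F15Rik (0.9357) and RP23-423B1.6 (0.9356). The group means of Gm12493 and RP23-423B1.6 spanned 0.036 and 0.02, so these correlations rest on very small differences. Between members, r was 0.98 for Gna12 and Gnai2, 0.975 for Gnai2 and Gnai3 and -0.978 for Cxcr4 and Gnb1.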

How the data were processed

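Polyadenylated RNA of 12 libraries was sequenced in 4 groups of 3, taken from the sample titles. The processing notes of the submitters name Salmon 1.4.0, STAR 2.7.6 and DESeq2 1.30.1, with reads mapped to mm10. The deposited table holds log2 values that the authors normalized between libraries. The transformation is not stated, the table holds no counts, and a compressing transformation would understate changes of weakly expressed genes. The design assumed that the values might need a logarithm, and they were used as deposited.

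Differences were tested with limma 3.58.1 (lmFit, eBayes with trend; R 4.3.3), in a model of 4 group means over the 12 libraries together, and P values were adjusted over 12151 genes (Benjamini-Hochberg). Calls used an adjusted p under 0.05. The 5 comparisons were Cre-ERT2 against ERT2 in WT and in KO cells, KO against WT with ERT2 and with Cre-ERT2, and the difference of the Cre-ERT2 change between KO and WT. The code was tested on simulated data. Exact 2-sided permutation tests cannot go below 0.1 with 3 against 3 libraries. Sequence windows came from RefSeq (GRCm38.p6), and a motif was searched on both strands.

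Members and gene lists were chosen with earlier results of these data known. Named genes were all members, the 3 largest rises and falls among called list genes above the median gene in each comparison, the 2 genes most like each member, the targeted genes and the highest called marker. Some genes that this rule names are not reported here. Alternatives were a pseudocount of 1 on unlogged values, a mean above 8, median centring, quantile normalization and an adjusted p under 0.01. Further ones were eBayes without trend, robust eBayes with trend, fits of the compared libraries alone, a replicate block and leaving out each library.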

Additional observations from a re-analysis of the deposited data

Results flagged for a closer look

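The change of Cxcr4 with Cre-ERT2 was larger in KO than in WT cells by 0.25 on the log2 scale (limma adjusted p = 0.000591). Under the alternatives run for it, this difference stayed called and lay between 0.228 and 0.260. The change of Gnb1 differed between KO and WT cells by -0.095 (limma adjusted p = 0.0354), but this call was lost in most alternatives. Both are singled out because the interaction of Cre-ERT2 and KO passed the test across all genes, as it did for 4.53% of them.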

How the results depend on the processing

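Of 1040 repeats of a member's change under alternatives, 932 kept direction and side of the threshold, 51 lost a call, 19 gained one and 38 reversed. Cxcr4 kept its call and direction in all of its own. The pseudocount changed no count by over 1.5 times.

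With an adjusted p under 0.01, members called with Cre-ERT2 were 1 in WT and 3 in KO cells and 1 for the difference, the list's count in KO cells was 13, and all genes numbered 787, 790 and 240. With a mean above 8, the members' counts were 5 in WT cells and 1 for the difference. All genes numbered 1290 in WT cells, and 6 list genes and 337 genes of all were called for the difference. Quantile normalization left 1 member for the difference. In the 6 compared libraries alone, 14 list genes and 934 genes of all were called with Cre-ERT2 in KO cells. Leaving out 1 library each gave 1 to 4 members in WT cells, 3 to 5 in KO cells and 1 to 2 for the difference. All genes then numbered 1026 to 1659, 1050 to 1458 and 383 to 595. The causes were not tested.

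Reversals concerned uncalled values near 0. Centring on medians gave -0.0037 for Gna12 and -0.0058 for Gna13 with Cre-ERT2 in WT cells, -0.0022 for Gnai2 and -0.0042 for Gnaq in KO cells, and -0.0082 for Gna13 in KO with ERT2. Quantile normalization gave -0.0016 for Gna13 in WT cells, -0.013 for Gnai2 and -0.0028 for Gnaq in KO cells, and 0.0027 for the difference of Gna15. It also called Gna13 higher in KO with ERT2 (0.069, limma adjusted p = 0.0281). Leaving out 1 library gave ranges with Cre-ERT2 in WT cells of -0.025 to 0.029 for Gna12, -0.012 to 0.022 for Gna13 and -0.042 to 0.10 for Gnaq. In KO cells they were -0.030 to 0.036 for Gna12, -0.0047 to 0.018 for Gnai2 and -0.041 to 0.051 for Gnaq. For the difference they were -0.034 to 0.034 for Gna12, -0.046 to 0.026 for Gna15, -0.098 to 0.046 for Gnaq and -0.062 to 0.0067 for Gnb2.

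Whether replicate numbers pair the libraries was not settled. Correlations of same-numbered deviations ran from -0.068 to 0.313 and passed 0.1 in 2 of 12 pairs. Between ERT2 KO and Cre-ERT2 KO, same-numbered pairs lay between 0.077 and 0.132 and differently numbered pairs between -0.087 and -0.019. Between Cre-ERT2 WT and Cre-ERT2 KO, differently numbered pairs ran from -0.355 to 0.356. With the replicate number as a block, members called were 2 and 4 with Cre-ERT2 in WT and KO cells, 7 and 9 in KO with ERT2 and Cre-ERT2, and 1 for the difference. In that fit, all genes called numbered 1361 and 1374 with Cre-ERT2 in WT and KO cells and 7089 in KO with ERT2. The calls lost with the block were those of Gnai3 in WT cells (limma adjusted p = 0.056), Gna15 in KO cells (0.0608) and Gnb1 for the difference (0.0669). With no counts, no limit set by depth can be given.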

Other observations

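Several list genes outside the rule for named genes were chosen after their values were seen. The genes named in this section, apart from the members, had means over the 12 libraries below the median gene (9.08). These means ran from 6.755 for Ccr2 to 8.753 for Pik3r5. Ccr2, a receptor for monocyte chemokines, rose with Cre-ERT2 by 0.38 in WT and 2.14 in KO cells, and the difference was 1.76. Rgs1, which dampens chemokine receptor signals in B cells, rose by 0.26 and 0.72, with a difference of 0.46. Pik3r5, a regulatory subunit of the PI3 kinase that βγ dimers activate, rose by 0.34 and 0.44.

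In KO against WT libraries Gnai1, the remaining Gi gene of this group, rose by 1.63 with ERT2 and 1.48 with Cre-ERT2, while Gnai2 and Gnai3 were lower. Gnai1 averaged 6.56 in ERT2 WT and 8.18 in ERT2 KO, where it stayed far below Gnai2 (13.42) and Gnai3 (12.42). Rgs10 changed by -1.34 and -1.05. Of the receptors that guide B cells in lymphoid organs, Cxcr5 changed by -1.27 and -1.62 and Ccr7 by -1.24 and -1.43. Ccr7 rose with Cre-ERT2 by 0.39 in WT and 0.20 in KO cells, in the direction of Cxcr4.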
